A study of Mus musculus with 26 samples.

Results

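Fbxo32 and 6 genes of the FoxO axis were followed through mouse neural stem cells that carried a MYB construct. The members are Fbxo32, Trim63, Foxo1, Foxo3, Foxo6, Klf15 and Pik3ip1, which are 7 of the 23152 genes with a probe set of their own on the array. Fbxo32 was chosen by a measured value, its lower signal with every MYB construct, so its differences from eGFP are given as a description with no test. The other 6 were chosen for what they are known to do, with earlier results of these data known.

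FoxO proteins are forkhead transcription factors that AKT and SGK kinases hold out of the nucleus when insulin or growth factor signals are strong. When those signals are weak, FoxO proteins enter the nucleus and switch on genes of growth arrest, stress resistance, autophagy and protein breakdown. In skeletal muscle the best known of these targets are Fbxo32 (atrogin-1) and Trim63 (MuRF1), and in neural stem cells FoxO proteins are known for keeping the stem cell pool. FoxO activity is set largely by phosphorylation, which an RNA array does not read.

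The cells came from E14.5 embryos of wild-type C57BL6 mice, and a lentivirus brought a transgene into every sample. In the pool set, pools 1 to 3 carried the control protein eGFP (6 arrays, 2 per pool), MYBtr, MYBQKI5, MYBQKI6 or QKItr (3 arrays each). MYBQKI joins the transcription factor MYB to the RNA-binding protein QKI, a fusion known from angiocentric glioma, and the meaning of tr is not given in the labels. In the suppression set all 8 samples carried MYBQKI6, and either Qk, the mouse gene for QKI (5 samples), or the bacterial control LacZ (3 samples) was suppressed as well. Values are deposited log2 signals. A gene's value is the mean over the probe sets that name it alone, and both eGFP repeats within a pool were averaged, which makes n the number of pools. Whether pools or numbered samples were separate cultures or animals is not labelled, so p-values measure only the spread between these samples.

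The pool arrays had medians of 5.61 to 5.74 and the suppression arrays of 5.39 to 5.51, and no comparison crossed the sets. Myb rose by 2.62, 2.37 and 2.84 on the log2 scale with MYBtr, MYBQKI5 and MYBQKI6 (limma adjusted p = 2.6e-04, 0.0019 and 3.5e-04). The 10 neural stem cell markers had a median log2 signal of 9.68 with eGFP. With the 3 MYB constructs together 2 of them were called, Nes at -1.04 (adjusted p = 0.017) and Vim at 0.46 (0.048). The 9 skeletal muscle markers had a median of 4.62 with eGFP and their sum stayed between 41.2 and 44.6 in all pool groups. Markers of other glial cells also moved with the MYB constructs. The 5 oligodendrocyte precursor markers summed to 40.5 to 41.5 with eGFP and to 37.5 to 39.2 with the MYB constructs, and the 5 astrocyte markers to 31.4 to 34.5 and to 26.4 to 31.7. With the 3 MYB constructs together, 2 of the 5 precursor markers (Cspg4 and Olig2) and 1 of the 5 astrocyte markers (Gfap) were called lower. In this comparison 2.00% of all genes were called, 1.18% higher and 0.825% lower. The fit with the pool as a block called 7.07% of all genes, 3.61% higher and 3.47% lower. With the pool as a block Olig1 (-1.11, adjusted p = 0.0023), S100b (-0.82, 0.0091) and Aqp4 (-0.72, 0.015) were called lower as well, and Pdgfra, a precursor marker, was called higher (0.67, 0.031, and 0.30 without the block). Among these markers Aqp4 was dim, with a mean of 4.95 with eGFP and 3.98 with MYBtr, where the 25th percentile of all genes was 3.76. In these bulk samples fewer cells of a type and less RNA per cell cannot be told apart. The part of these cell types in the results below was not tested.

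The sequence most tied to the FoxO axis among the members is the promoter of Trim63, shown because it carries the forkhead element that FoxO proteins bind. It lies at chr4:134314870-134315119 on the plus strand of GRCm38.p6 (RefSeq) and covers the 250 bases before the start of the gene. Capitals mark 1 match to the forkhead element TTGTTTAC and 3 matches to the MYB core AACNG, searched on both strands.

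Trim63 promoter: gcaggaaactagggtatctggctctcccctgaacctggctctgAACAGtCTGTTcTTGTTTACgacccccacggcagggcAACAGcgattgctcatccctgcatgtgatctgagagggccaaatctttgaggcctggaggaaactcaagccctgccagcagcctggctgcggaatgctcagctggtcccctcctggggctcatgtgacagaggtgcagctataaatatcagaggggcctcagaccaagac

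Counted from the start of Trim63, the forkhead element begins at -195 and the MYB cores begin at -207, -201 and -170. RefSeq windows of 300 bases, reaching 50 bases past the start, were at hand for 5 of the 7 members, Fbxo32 and Foxo6 having none here. The forkhead element occurred in 1.23% of all 32851 windows, in that of Trim63 alone among the 5 members, and in 2 of the 22 described FoxO target genes that had a window. The MYB core occurred in 80.3% of all windows. It had 2 matches in Foxo1, 1 in Foxo3, 2 in Pik3ip1 and none in Klf15. A match is a description of the letters and not a bound site.

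Fbxo32 encodes the F-box subunit that brings substrates to an SCF ubiquitin ligase. Its log2 signal with eGFP was 9.57, 8.90 and 8.66 in pools 1, 2 and 3. With MYBtr it was 6.74, 6.10 and 7.10, with MYBQKI5 7.46, 7.45 and 7.30, and with MYBQKI6 7.40, 6.72 and 7.26. All 9 MYB samples lay below all 3 eGFP pools, the nearest pair being 7.46 and 8.66. Fbxo32 was chosen for this fall, and the share of all genes separated in this way was not counted. Nothing is therefore read from the separation. QKItr, which carries no MYB in its name, gave 9.24, 8.68 and 8.56 and overlapped eGFP. Against the eGFP of the same pool its differences were -0.33, -0.22 and -0.09.

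The group means for Fbxo32 were 9.04 ± 0.48 (SD, n = 3 pools) with eGFP, 8.83 ± 0.36 with QKItr, 7.40 ± 0.09 with MYBQKI5, 7.13 ± 0.36 with MYBQKI6 and 6.65 ± 0.51 with MYBtr. In that order eGFP and QKItr overlapped, and MYBQKI6 overlapped both MYBQKI5 and MYBtr, while MYBQKI5 and MYBtr did not overlap each other. The share of all genes with such a gap was not counted. Against eGFP, Fbxo32 was lower by a log2 difference of -2.40 (5.27-fold) with MYBtr, -1.64 (3.12-fold) with MYBQKI5 and -1.92 (3.78-fold) with MYBQKI6. The 3 MYB constructs together gave -1.98 (3.96-fold). Within pools the difference was -2.83, -2.80 and -1.55 with MYBtr, -2.11, -1.45 and -1.35 with MYBQKI5, and -2.17, -2.18 and -1.40 with MYBQKI6, so pool 3 showed the smallest difference with each construct. All comparisons with eGFP share the same 3 eGFP pools, so they are not independent of each other. Repeat eGFP arrays of 1 pool differed by no more than 0.09 for Fbxo32. Among all genes the share called (limma adjusted p under 0.05) was 1.37% with MYBtr, 0.199% and 0.765% with MYBQKI5 and MYBQKI6, and 2.00% with the 3 together, of which 1.18% of genes were higher and 0.825% lower. Since Fbxo32 was chosen on these contrasts, nothing is read from its place among them.

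Fbxo32 was not called in the comparisons other than a MYB construct against eGFP. These comparisons share samples with the contrasts on which it was chosen, so they are not free of that choice. QKItr differed from eGFP by -0.21 (95% confidence interval -0.82 to 0.39, limma adjusted p = 1). Fbxo32 was higher with MYBQKI5 than with MYBtr by 0.76 (0.15 to 1.36, unadjusted p = 0.018 and adjusted p = 1 in limma, 0.45 with the pool as a block), and this held in direction for all 11 of its probe sets. MYBQKI6 differed from MYBtr by 0.48 (-0.13 to 1.09) and from MYBQKI5 by -0.28 (-0.88 to 0.33). In limma, 0% of genes were called with QKItr against eGFP and in each pair of MYB constructs. At an unadjusted p under 0.05 there were 362 genes with QKItr, 849 for MYBQKI5 against MYBtr, 604 for MYBQKI6 against MYBtr and 404 for MYBQKI6 against MYBQKI5.

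**Figure D1:**
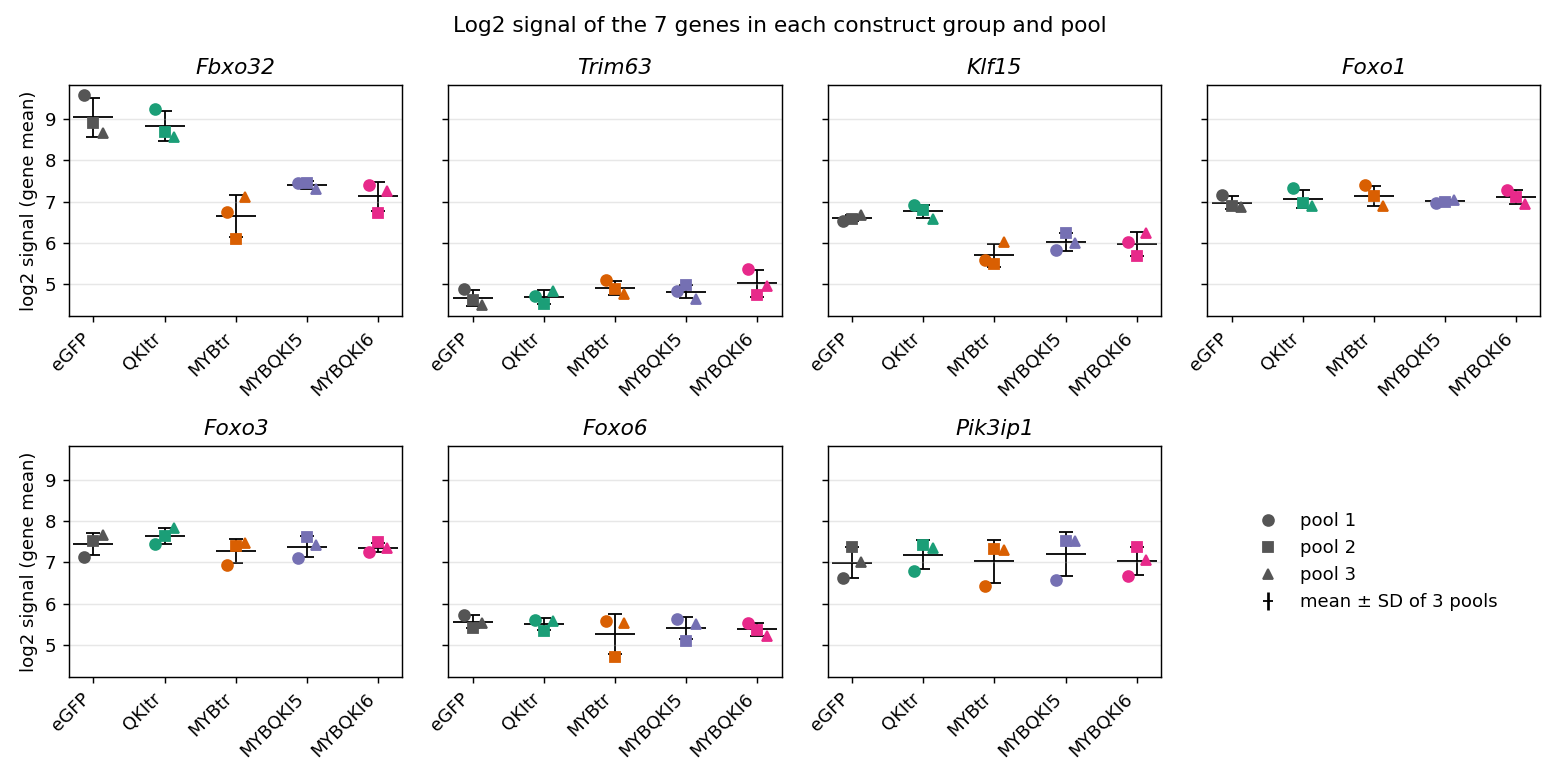
Log2 signal (vertical axis, mean over a gene's probe sets) of the 7 genes in the 5 construct groups, with 1 point per pool, the shape giving the pool, and bars for the mean ± SD of 3 pools. Fbxo32 with any MYB construct lies at 6.10 to 7.46, below the eGFP range of 8.66 to 9.57, and Klf15 lies at 5.49 to 6.25 against 6.53 to 6.67, while the groups of the other 5 genes overlap. The share of all genes separated like Fbxo32 and Klf15 was not counted, and Fbxo32 was chosen for its fall.

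All 11 probe sets of Fbxo32 were lower with each of the 3 MYB constructs. With MYBtr their differences from eGFP ran from -3.46 to -1.21, with MYBQKI5 from -2.14 to -0.43 and with MYBQKI6 from -2.26 to -0.85. Probe set 17317269 showed the largest difference with the 3 constructs together, -2.62, going from a mean log2 signal of 9.41 with eGFP to 5.95, 7.26 and 7.15 with MYBtr, MYBQKI5 and MYBQKI6. Probe set 17317277 showed the smallest, -0.83, from 7.15 with eGFP to 5.94, 6.72 and 6.29. This probe set aside, the differences lay between -2.62 and -1.79, so 10 of the 11 were lower by a similar amount. With QKItr, 10 of the 11 were below eGFP and 1 above, from -0.74 to 0.23, and limma called none of them.

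**Figure D2:**
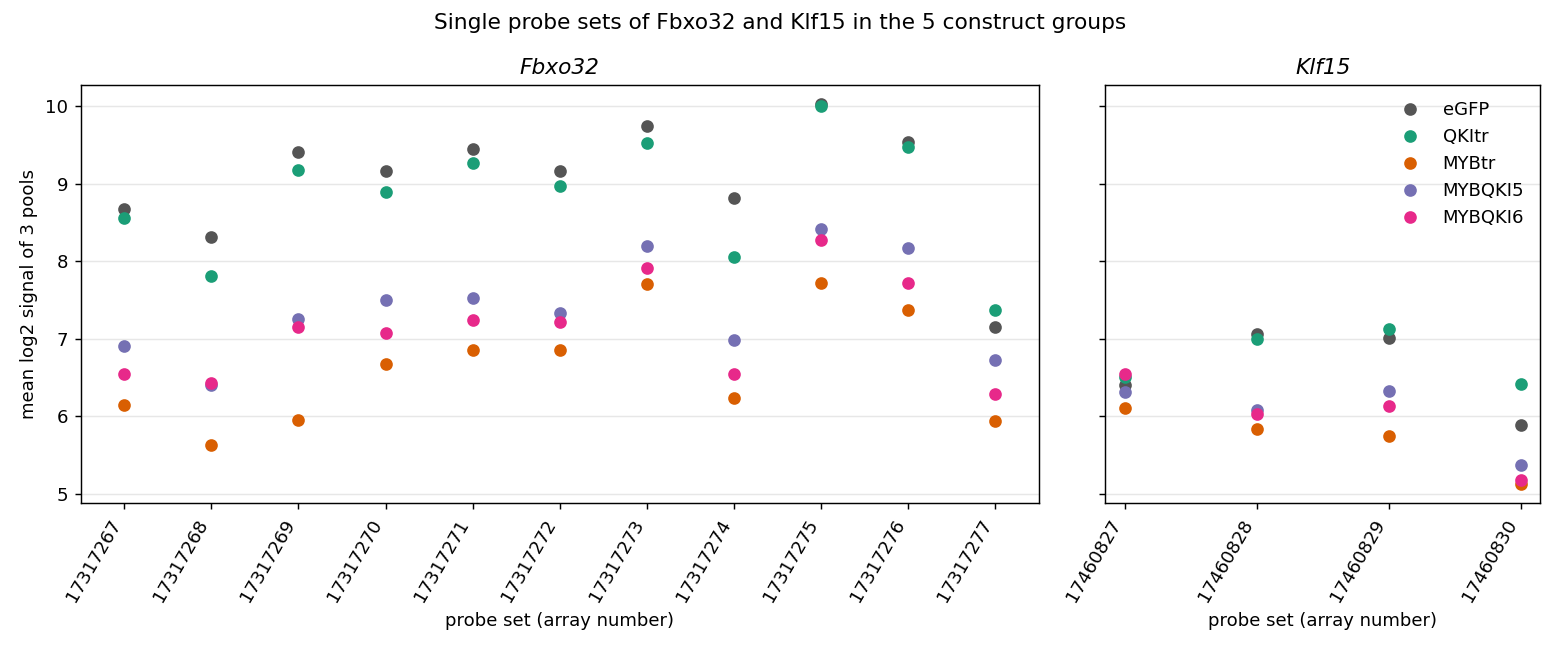
Mean log2 signal over 3 pools (vertical axis) of each probe set of Fbxo32 (left, 11) and Klf15 (right, 4) in the 5 construct groups. The MYB groups lie below eGFP and QKItr at every Fbxo32 probe set, least so at 17317277, and at 3 of the 4 Klf15 probe sets.

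Klf15, a Krüppel-like transcription factor that glucocorticoids induce and that is known to raise Fbxo32 and Trim63 in muscle, was the 1 member of the other 6 that was called. Its log2 signal with eGFP was 6.53, 6.58 and 6.67 in pools 1 to 3. With MYBtr it was 5.59, 5.49 and 6.02, with MYBQKI5 5.82, 6.25 and 6.00, and with MYBQKI6 6.01, 5.67 and 6.24. All 9 MYB samples lay below all 3 eGFP pools, while QKItr gave 6.91, 6.79 and 6.58 and overlapped eGFP. The share of all genes separated in this way was not counted, so the separation is not read as particular to Klf15. Klf15 fell by 0.89 on the log2 scale with MYBtr (SE 0.18, 1.85-fold, limma adjusted p = 0.025) and by 0.69 with the 3 MYB constructs together (SE 0.14, 1.62-fold, adjusted p = 0.023).

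With MYBQKI5 and MYBQKI6 alone the differences of Klf15 were -0.57 (SE 0.18, limma adjusted p = 0.33, and 0.10 in a fit with pools as blocks) and -0.62 (adjusted p = 0.17, and 0.053 with the block). Klf15 was lower than eGFP in 9 of 9 pairs of a MYB sample and the eGFP of its pool, by between -1.10 and -0.33. These pairs share the same 3 eGFP pools, so they are not independent of each other. No pair of MYB constructs was called for Klf15: MYBQKI5 exceeded MYBtr by 0.32 (95% confidence interval -0.06 to 0.70) and MYBQKI6 exceeded it by 0.27 (-0.11 to 0.65). The test of QKItr against eGFP gave 0.17 (-0.21 to 0.55, adjusted p = 1). Of the 4 Klf15 probe sets, 3 were lower with the MYB constructs together, by -1.08, -0.94 and -0.67, and 17460827 showed -0.08. No single Klf15 probe set was called, where 0.356% of the 269751 probe sets were, and 3 of the 4 had an unadjusted p under 0.05 (0.0030, 0.00044 and 0.0056) in limma. Without pool 1, 2 or 3 of eGFP, Klf15 was no longer called, while its difference stayed at -0.72, -0.70 and -0.66 with the 3 constructs together (adjusted p = 0.088, 0.12 and 0.12) and at -0.92, -0.89 and -0.85 with MYBtr (0.080, 0.097 and 0.090). The MYBtr call was also lost without pool 1 or 2 of MYBtr (-0.84 and -0.78, adjusted p = 0.11 and 0.15). The fits that left out a pool of a group, here and below, had no pool block.

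Trim63 encodes the RING ubiquitin ligase that is paired with Fbxo32 in muscle wasting. Its mean with eGFP, 4.66, lay under the median of 5.00 over all genes, so a fall may not be measurable at this level. Its log2 signal was 4.88, 4.62 and 4.50 with eGFP, 5.10, 4.88 and 4.77 with MYBtr, 4.84, 4.97 and 4.65 with MYBQKI5, 5.37, 4.73 and 4.95 with MYBQKI6, and 4.72, 4.51 and 4.83 with QKItr. The groups overlapped, and 8 of the 9 MYB samples were above the eGFP of their pool. The difference with the 3 MYB constructs together was 0.25 (95% confidence interval -0.05 to 0.55, limma adjusted p = 0.68). In pool 1 the repeat eGFP arrays of Trim63 differed by 0.58, more than the difference of any construct from the eGFP of its pool.

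None of the FoxO genes on the array was called. Foxo1, the form best known for its part in metabolism, had log2 signals of 7.16, 6.90 and 6.86 with eGFP, 7.39, 7.13 and 6.89 with MYBtr, 6.97, 7.00 and 7.04 with MYBQKI5, and 7.29, 7.12 and 6.94 with MYBQKI6. These ranges overlapped, and so did that of QKItr at 6.90 to 7.32. Its difference with the 3 MYB constructs together was 0.11 (95% confidence interval -0.17 to 0.39, limma adjusted p = 1).

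Foxo3, the form best known for driving Fbxo32 in muscle, had 7.14, 7.52 and 7.67 with eGFP, 6.93, 7.40 and 7.47 with MYBtr, 7.10, 7.62 and 7.42 with MYBQKI5, and 7.25, 7.48 and 7.34 with MYBQKI6. QKItr gave 7.45, 7.63 and 7.83, each above the eGFP of its pool, with a difference of 0.19 (-0.21 to 0.59, limma adjusted p = 1). The difference of Foxo3 with the 3 MYB constructs together was -0.11 (-0.44 to 0.22, adjusted p = 1).

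Foxo6, a form known mainly from brain, had 5.73, 5.42 and 5.53 with eGFP and its lowest value, 4.70, in pool 2 with MYBtr. Its MYB values otherwise ran from 5.10 to 5.62, and the difference with the 3 constructs together was -0.21 (-0.58 to 0.16, limma adjusted p = 0.94). Foxo4, which is in the family list and is no member, gave -0.17 (-0.41 to 0.07, adjusted p = 0.82). With the pool as a block none of the 4 FoxO genes was called either, the adjusted p with the 3 constructs together being 0.44 to 0.69.

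Pik3ip1 encodes a membrane protein that restrains PI3K, the kinase upstream of AKT. Its signal followed the pool more than the construct, with 6.42 to 6.78 in pool 1 and 7.00 to 7.51 in pools 2 and 3 over all 5 groups. Its difference with the 3 MYB constructs together was 0.09 (95% confidence interval -0.46 to 0.64, limma adjusted p = 1). This was the widest interval among the members in the fit without a block. With the pool as a block its SE went from 0.26 to 0.10. The 6 members other than Fbxo32 have 45 probe sets, of which none was called singly with the 3 MYB constructs together, and 3 had an unadjusted p under 0.05 in limma, all of them in Klf15.

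**Figure D3:**
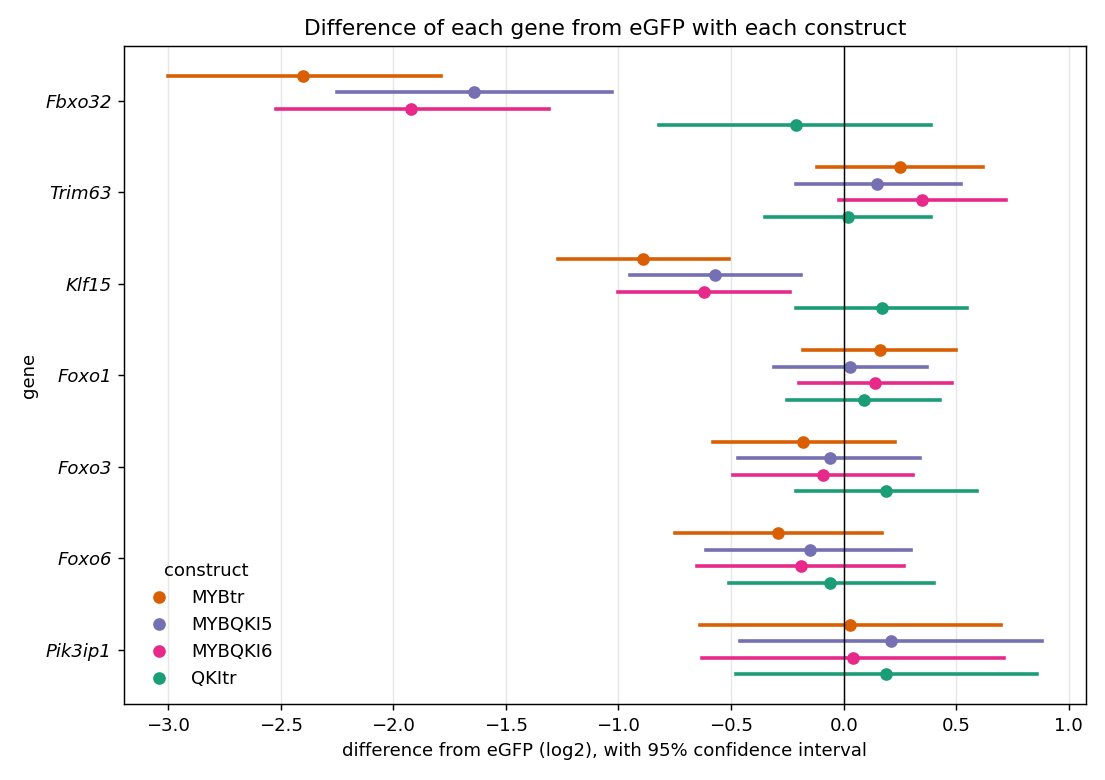
Difference from eGFP on the log2 scale (horizontal axis) of the 7 genes (vertical axis) with each construct, points for the estimate and bars for its 95% confidence interval from the fit over 15 columns. The Fbxo32 points lie at -2.40, -1.64 and -1.92 with the MYB constructs, the Klf15 points at -0.89, -0.57 and -0.62, and the intervals of the other 5 genes all include 0. The Fbxo32 bars with the MYB constructs are no test, since the gene was chosen on these contrasts.

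The wider FoxO programme was read from lists around the members, none of which was fixed without earlier results in view. Of the 26 described FoxO target genes, 1 rose and 2 fell with the 3 MYB constructs together, where 1.18% of all genes were called higher and 0.825% lower, with a median difference of -0.05 against -0.007 over all genes. Cited2, a transcriptional co-regulator, rose by 1.17 (SE 0.20, 2.26-fold, limma adjusted p = 0.0074), from 9.02 ± 0.45 with eGFP to 10.1, 10.32 and 10.17 with MYBtr, MYBQKI5 and MYBQKI6. Bcl6, a transcriptional repressor, fell by 0.67 (adjusted p = 0.019), from 7.28 ± 0.03 to 6.40, 6.79 and 6.63. Sepp1, the secreted selenium carrier, fell by 1.13 (adjusted p = 0.037), from 8.60 ± 0.24 to 7.29, 7.70 and 7.42. These 3 genes moved in both directions, and none was called with QKItr, where the list had no call and no gene at an unadjusted p under 0.05 in limma. With the pool as a block 3 of the 26 rose and 4 fell, against 3.61% of genes higher and 3.47% lower, 7.07% in all. The additions were Cdkn1b, the inhibitor of cyclin-dependent kinases known as p27, at 0.42 (adjusted p = 0.014, and 0.084 without the block), Gadd45a at 0.74 (0.011, and 0.67 without it), Trib1 at -0.72 (0.0038, and 0.25) and Gabarapl1 at -0.54 (0.0035, and 0.37). Without 1 pool of eGFP the calls of Bcl6 and Sepp1 were lost whichever pool it was (Bcl6 0.10, 0.093 and 0.087, Sepp1 0.089, 0.23 and 0.16), and that of Cited2 without pool 1 (0.061). Sepp1 was also not called without pool 1 or 2 of MYBQKI6 or of MYBtr (0.060 to 0.071).

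In PI3K, AKT and SGK signalling, 3 of the 18 genes measured fell and none rose with the 3 MYB constructs together, against 0.825% of all genes called lower and 1.18% higher. The median difference was -0.17. Sgk3, a kinase that phosphorylates FoxO proteins, fell by 0.61 (SE 0.11, 1.52-fold, limma adjusted p = 0.0082), from 7.69 ± 0.06 with eGFP to 7.11, 7.02 and 7.13 with MYBtr, MYBQKI5 and MYBQKI6. Phlpp1, a phosphatase that switches AKT off, fell by 0.87 (adjusted p = 0.035), from 9.49 ± 0.41 to 8.40, 8.80 and 8.66. Inpp4b, a lipid phosphatase that also restrains the pathway, fell by 1.00 (adjusted p = 0.043), from 6.26 ± 0.37 to 5.22, 5.30 and 5.26. The 3 genes are a kinase of FoxO proteins and 2 phosphatases of the pathway. Irs1, an insulin receptor adaptor, gave -0.39 (adjusted p = 0.10, and 0.041 with the block on pools), and in the blocked fit 2 genes of the list rose and 6 fell, against 7.07% of all genes called. Those that rose were Pik3cb, a catalytic subunit of PI3K, at 0.44 (0.015, and 0.10 without the block) and Pik3r3, a regulatory subunit, at 0.68 (0.0012, and 0.43). The others that fell were Pik3r2, another regulatory subunit, at -0.35 (0.037, and 0.19) and Sgk1, also a kinase of FoxO proteins, at -0.42 (0.032, and 0.78). None of the 18 was called with QKItr in limma and none had an unadjusted p under 0.05, against 0% and 1.56% of all genes. Sgk3 was not called without pool 1, 2 or 3 of eGFP (0.051, 0.053 and 0.062). Phlpp1 was not called without pool 1 or 2 of eGFP (0.26 and 0.12), pool 2 or 3 of MYBQKI5, or pool 1 or 2 of MYBQKI6 or MYBtr. Inpp4b was called without pool 2 of MYBQKI5, pool 3 of MYBQKI6 or pool 3 of MYBtr, and in none of the other 9 fits that left out 1 pool of 1 group (highest adjusted p = 0.25).

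The relatives and partners of Fbxo32 held no call. Over all genes 2.00% were called with the 3 MYB constructs together, 7.07% with the block, and 9.8% had an unadjusted p under 0.05 in limma. At these shares the absence of a call does not set lists of 12 or 11 genes apart from all genes. Of 12 genes for F-box proteins, muscle ubiquitin ligases and the SCF core, none was called with the 3 MYB constructs together, with or without the block, and 1 had an unadjusted p under 0.05 in limma. That gene was Fbxo30, another F-box gene induced in muscle wasting, at 0.52 (adjusted p = 0.42). Fbxo25, the closest relative of Fbxo32, gave -0.15 (95% confidence interval -0.43 to 0.13, adjusted p = 0.96), Fbxo21 gave 0.22 and Trim55, a relative of Trim63, 0.14. Rbx1 was not analysed here. Among 11 TGF-beta and SMAD genes known around Fbxo32 none was called without the block and 1 had an unadjusted p under 0.05. Smad7 stood at 0.41 (adjusted p = 0.48), Tgfb2 at 0.60 (0.72, and 0.020 with the block), Tgfbr2 at -0.21 and Smad3 at -0.20.

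The glucocorticoid list, which holds partners of Klf15, had 1 of 13 genes called lower and none higher with the 3 MYB constructs together, against 0.825% and 1.18% of all genes. Zbtb16, a zinc finger repressor that glucocorticoids induce, fell by 0.62 (SE 0.14, 1.54-fold, limma adjusted p = 0.028), from 6.11 ± 0.36 with eGFP to 5.24, 5.74 and 5.48. Nr3c1, the glucocorticoid receptor, gave -0.37 (adjusted p = 0.10, and 0.040 with the pool as a block). Klf9 and Mt2, also induced by glucocorticoids, lay on the other side at 0.56 (0.19, and 0.017 with the block) and 0.81 (0.41, and 0.0023 with the block). The median of the list was -0.01, with 5 genes above 0 and the others at or below it. Zbtb16 was not called without pool 1 or 2 of eGFP (0.059 and 0.22), pool 3 of MYBQKI5 (0.053), pool 2 of MYBQKI6 or pool 2 of MYBtr (0.052 each).

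**Figure D4:**
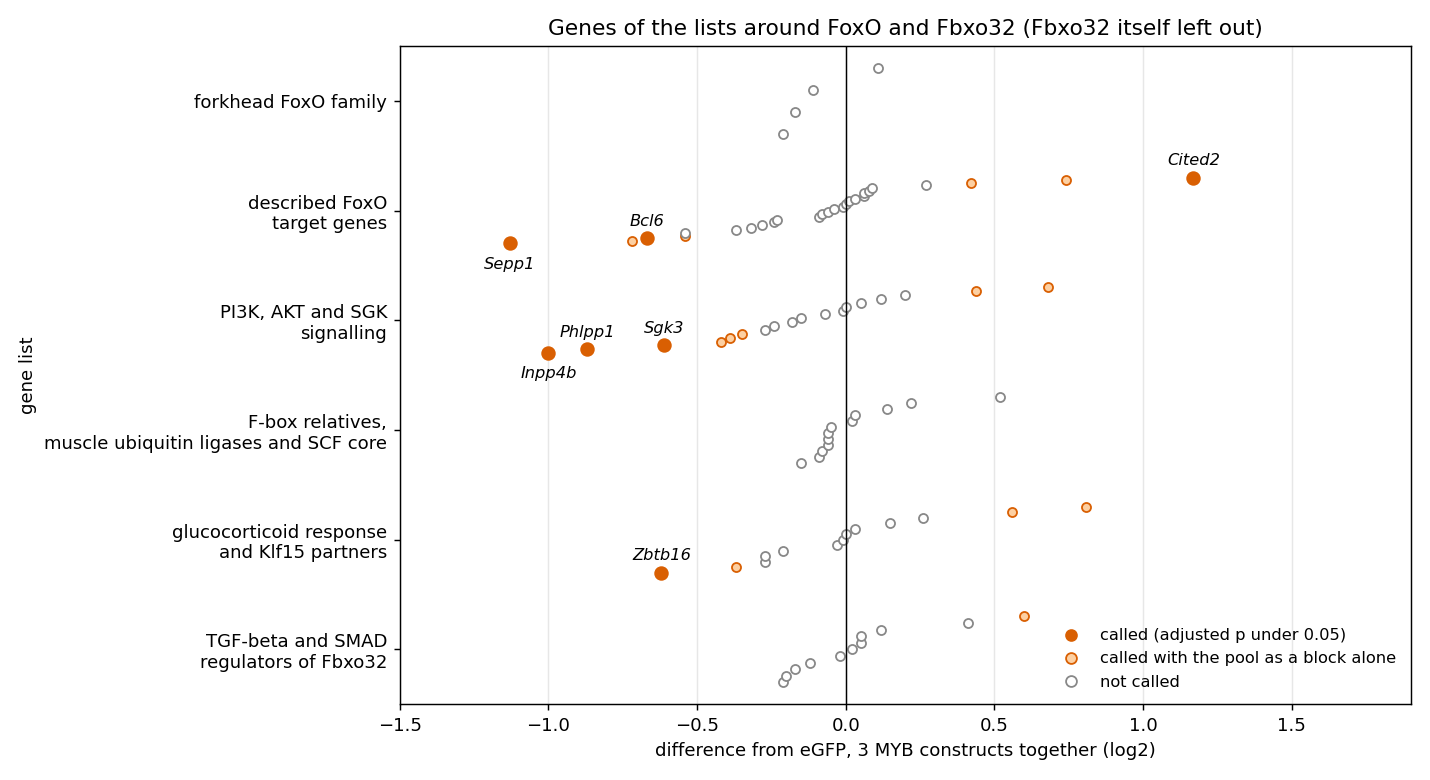
Difference from eGFP with the 3 MYB constructs together on the log2 scale (horizontal axis) for each gene of the 6 lists (vertical axis), with 1 point per gene and Fbxo32 left out. Filled points are called in limma over all genes, pale points with the pool as a block alone. The 7 named genes run from Sepp1 at -1.13 to Cited2 at 1.17, and the FoxO family stays between -0.21 and 0.11.

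The genes whose pattern was most like that of Fbxo32 were found by Pearson correlation over the 15 columns, as a description with no p, since the columns fall into MYB samples and the rest. Of 18221 genes with a full name, Glis2 (0.963), Sash1 (0.948), Arnt2 (0.948), Zadh2 (0.948) and Nkain3 (0.943) were most alike. Hspa4l (-0.969), Ttc21b (-0.962), Sh3rf3 (-0.962), Wasf3 (-0.961) and Zmynd10 (-0.960) were most opposed. Arnt2 went from 8.63 with eGFP to 7.51, 7.70 and 7.70 with MYBtr, MYBQKI5 and MYBQKI6, and Zmynd10 from 4.69 to 8.21, 7.64 and 7.78. Klf15 ranked 37 among the most alike, with a correlation of 0.917. Foxo6 had 0.549, Foxo3 0.281, Pik3ip1 -0.133, Foxo1 -0.147 and Trim63 -0.403. Once group means were removed the order was another, with 0.596 for Foxo6, 0.546 for Klf15, 0.478 for Trim63, 0.346 for Foxo1, -0.519 for Pik3ip1 and -0.536 for Foxo3. With pool means removed in place of group means, Klf15 had 0.949, Foxo3 0.656 and Foxo6 0.596. Pik3ip1 then had 0.16, Foxo1 -0.42 and Trim63 -0.604.

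No member was called between Qk and LacZ suppression in cells with MYBQKI6. The suppression itself was not called on the array: Qk had log2 signals of 9.35, 9.30, 9.46, 9.70 and 9.58 in the 5 samples labelled Qk suppressed and 9.68, 9.70 and 9.74 in the 3 labelled LacZ suppressed, a difference of -0.22 (95% confidence interval -0.55 to 0.10, limma adjusted p = 1, exact two-sided permutation p = 0.089). That permutation takes the 8 samples as exchangeable, though samples with the same second number deviate together. Against the LacZ sample of the same second number Qk was lower in 4 of 5 samples, by -0.38, -0.35, -0.28 and -0.16, and stood at 0.02 in the fifth, and with that number as a block the difference was -0.24 (adjusted p = 0.73). Results of this comparison are therefore given by the labels. Over all genes 0.00432% were called, which is 1 gene, and 946 had an unadjusted p under 0.05 in limma.

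Fbxo32 had 4.80, 5.55, 5.04, 5.69 and 5.81 with Qk suppressed and 5.65, 4.89 and 5.50 with LacZ suppressed. The groups overlapped fully, and the difference was 0.03 (95% confidence interval -0.53 to 0.60, exact permutation p = 0.88 over 56 arrangements). Klf15 had 5.14, 5.26, 5.14, 5.43 and 5.07 against 5.36, 5.05 and 5.33, a difference of -0.04 (-0.37 to 0.29). Neither was set against its level in the pool set.

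Foxo3 gave the largest difference among the members, 0.28 (-0.33 to 0.89, exact permutation p = 0.39), with 5.83 to 7.23 in the Qk samples around the LacZ range of 6.05 to 6.76. Foxo6 differed by 0.23 (-0.14 to 0.59), Foxo1 by 0.19 (-0.15 to 0.54), Trim63 by -0.02 (-0.36 to 0.31) and Pik3ip1 by -0.01 (-0.63 to 0.60). These intervals allow changes of up to 0.89 on the log2 scale in the case of Foxo3. Foxo4, which is no member, gave 0.23 (-0.12 to 0.58). The 4 FoxO genes all lay above 0, as did 55.5% of all genes. Their median was 0.23 against 0.027 over all genes, and none of the 4 was called. No probe set of the members was called, as in 0% of all probe sets, and of the 45 outside Fbxo32, 1 had an unadjusted p under 0.05 in limma. Of the lists, only the glucocorticoid list had genes at an unadjusted p under 0.05, Sult1a1 at -0.40 and Hsd11b1 at -0.55, and neither was called (adjusted p = 1).

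**Figure D5:**
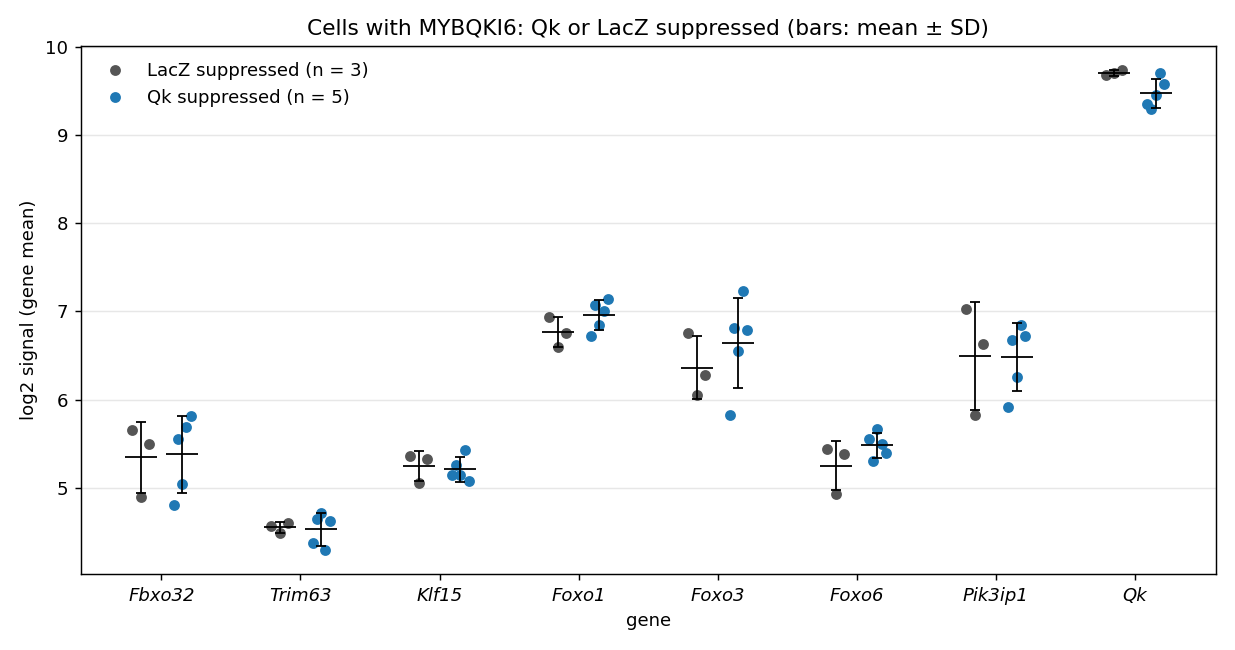
Log2 signal (vertical axis) of the 7 genes and of Qk in cells with MYBQKI6, with 1 point per sample for LacZ suppressed (3) and Qk suppressed (5) and bars for the mean ± SD. The groups overlap in every gene, Fbxo32 at 4.80 to 5.81 and Qk at 9.30 to 9.74.

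Blocking on the pool raised the share of genes called to 5.97%, 2.63% and 4.39% with MYBtr, MYBQKI5 and MYBQKI6, and to 7.07% with the 3 together. Among the 6 members outside Fbxo32 Klf15 remained the 1 that was called, with MYBtr (limma adjusted p = 0.0060) and with the 3 constructs together (0.0059). For Foxo1, Foxo3, Foxo6, Pik3ip1 and Trim63 the lowest adjusted p against eGFP with the block was 0.24, that of Trim63 with MYBQKI6.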

How the data were processed

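Log2 values were deposited (their range shows the scale) for 269751 probe sets of an Affymetrix array in 26 samples, and the authors' normalization is not given in the sources used here. Of the probe sets 233753 name 1 symbol, 5106 several and 30892 none in GEO's platform annotation; 20875 of the 23152 symbols are current in RefSeq, 2247 are updated and 30 unmatched. The array's genome build was not given, so positions are printed for the RefSeq promoter alone.

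Gene means were fitted in limma 3.58.1 (R 4.3.3, data.table of version 1.17.8; lmFit, contrasts.fit and eBayes), the 15 pool columns together and the 8 suppression arrays apart, with no filter on dim genes. Called means a Benjamini-Hochberg adjusted p under 0.05 over all genes, or over all probe sets for single ones. The fit was tested on simulated data with independent noise and no effect of pool or second number. That test therefore does not cover samples that deviate together. Motifs and figures used Python 3.11.15 with matplotlib 3.10.9. Precision is limited by the number of arrays.

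Samples that share a pool number deviate together (correlations 0.31 to 0.72, median 0.53, over 30 pairs, against a median of -0.23 over 60 other pairs), as do suppression samples that share the second number (0.22 to 0.57 over 5 pairs), so blocked values stand beside results whose call they change.

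The members, lists, tests and alternatives were chosen with earlier results of these data known. Named are the 7 members, up to 4 genes of each list with the smallest p with the 3 MYB constructs together and up to 2 in the suppression comparison, and the 5 genes most and least like Fbxo32 without predicted, clone and small RNA names. Other list genes and markers called with or without the block were named after their values were seen.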

Additional observations from a re-analysis of the deposited data

Results flagged for a closer look

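The 7 genes were each checked in the eGFP arrays and in the Qk suppressed samples, and in 1 of these 14 sets of values 1 array stood far from the rest by Dixon's test. Chance marks about 1 in 20 such sets. The case is Trim63 with eGFP, where repeat 1 of pool 1 had a log2 signal of 5.17 while the other 5 arrays lay between 4.37 and 4.67, a gap of 0.631 of the group's whole range. Repeat 2 of the same pool gave 4.59.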

How the results depend on the processing

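With the pool number as a replicate block, the genes called numbered 1383, 609 and 1017 with MYBtr, MYBQKI5 and MYBQKI6 and 1638 with the 3 MYB constructs together, against 317, 46, 177 and 464 without it. Keeping the 18 arrays apart with the pool as a random block gave 1927, 1027, 1481 and 2707, and 4 for MYBQKI5 against MYBtr. Taking the probe set of highest mean for a gene gave 96, 18, 41 and 197, and 0 for Qk suppression. The median of probe sets gave 182, 26, 93 and 297. Quantile normalization gave 70 with MYBQKI5, fitting only the groups compared gave 37 with MYBtr and 27 with MYBQKI6, and averaging the Qk arrays by first number gave 0. Leaving out 1 pool of 1 group gave 52 to 456 genes with MYBtr, 11 to 32 and 23 to 244 with MYBQKI5 and MYBQKI6, 113 to 598 with the 3 together, 0 to 3 for MYBQKI5 against MYBtr and 0 to 1 for MYBQKI6 against MYBQKI5. Leaving out 1 suppression sample gave 0 to 1. The causes were not tested.

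Fbxo32 stayed lower with each MYB construct under all alternatives run, with leave-one-out values of -2.62 to -2.12 with MYBtr, -1.83 to -1.37 with MYBQKI5 and -2.11 to -1.65 with MYBQKI6. Since Fbxo32 was chosen for this fall, these values are a description and no support for it. Klf15 also stayed lower under all alternatives run. It was not called with MYBtr or the 3 together by the median of probe sets (adjusted p = 0.13 and 0.16) or, with MYBtr, in a fit of the groups compared (0.095). It was called with MYBQKI5 and MYBQKI6 in the 18-array fit (0.014 and 0.0051). The probe set of highest mean ended the calls of Inpp4b (0.17), Phlpp1 (0.059), Sepp1 (0.12) and Sgk3 (0.19), the median those of Inpp4b (0.15), Sepp1 (0.072) and Zbtb16 (0.16), and a fit of the groups compared that of Sepp1 (0.062).

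With Qk suppression the probe set of highest mean moved Klf15 to -0.49 and Trim63 to -0.30, and the median moved Pik3ip1 to -0.52, none of them called. Differences that changed sign were not called under either setting. The Qk suppression difference of Fbxo32 became -0.06 with the second number as a replicate block, -0.05 with the probe set of highest mean and -0.06 with Qk arrays averaged. The probe set of highest mean turned Foxo1 with QKItr to -0.07. The median turned Foxo3 with MYBtr to 0.04, Trim63 to -0.04 with MYBQKI5, -0.31 with QKItr and 0.01 with Qk suppression, and Foxo1 with Qk suppression to 0. Leaving out 1 sample alone, Pik3ip1 ranged from -0.16 to 0.33 with MYBtr, -0.16 to 0.22 with MYBQKI6, -0.01 to 0.39 with QKItr, -0.10 to 0.28 with the 3 together and -0.35 to 0.25 with Qk suppression (0.06 without the third LacZ sample). Foxo3 ranged from -0.22 to 0.07 with MYBQKI5, -0.24 to 0.02 with MYBQKI6 and -0.26 to 0 with the 3 together. Foxo1 ranged from -0.03 to 0.12 with MYBQKI5 and -0.04 to 0.19 with QKItr. With QKItr, Fbxo32 ranged from -0.42 to 0.05, Foxo6 from -0.13 to 0.03 and Trim63 from -0.06 to 0.13. With Qk suppression Fbxo32 ranged from -0.20 to 0.19, Klf15 from -0.14 to 0.01 and Trim63 from -0.07 to 0.04, and Klf15 from -0.18 to 0.10 for MYBQKI6 against MYBQKI5. Background signals were not analysed here, and among the 7 members repeat eGFP arrays differed most in Trim63, by 0.58 in pool 1.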
